A study of Mus musculus with 6 samples.

Results

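The 32 genes described here make, move and export cholesterol, and they were chosen by name from the 48397 gene symbols of the count files. The rule itself uses no measured value, but the genes were picked with earlier results of these data known. Each was found in the files and each passed the filter on low counts. They comprise 18 enzymes of synthesis (7 of the mevalonate arm and 11 of the squalene and sterol arm), 4 genes that control the transcription factor SREBP2, 4 of transport and storage, and 6 of the LXR and export side. Expression was measured by bulk RNA sequencing of lung cells sorted live for EGFP at postnatal day 8 from mice carrying 1 Pdgfra-EGFP reporter allele (genotype PdgfraEGFP/+), which marks lung mesenchyme. Pregnant mothers had been injected intraperitoneally at E18.5 with 5E1, an antibody against hedgehog ligands, or with control IgG, and each group held 3 libraries. All 6 libraries carry the reporter allele. The labels do not say whether a library came from 1 pup or a pool, nor whether pups shared a litter, and the p-values therefore speak of the spread among the 3 libraries of a group, which may be partly technical. Reads counted to genes numbered 16958433 to 34318583 per library.

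Cholesterol is built from acetyl-CoA through mevalonate and isoprenoid units to squalene, which is closed into lanosterol and then trimmed to cholesterol. When sterol is scarce in the endoplasmic reticulum, SCAP escorts SREBP2 to the Golgi, where it is cleaved into a factor that switches on the genes of synthesis, while INSIG proteins hold the SCAP complex back when sterol is plentiful. Oxysterols, which form when cholesterol is abundant, activate the nuclear receptors LXR alpha and LXR beta, which switch on genes of efflux. In the lung, fibroblasts supply lipid to the alveolar epithelium, and cholesterol is also needed for hedgehog ligands and for the receptor Smoothened to work.

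Sorted cells of the 5E1 group held less RNA of most synthesis enzymes and more RNA of the export genes. Of the 32 genes 13 fell and 4 rose (adjusted p under 0.05), and 15 did not pass. Over all 16198 genes tested, 11.1% fell, 12.1% rose and 23.2% changed in either direction. The median log2 fold change (5E1 over IgG throughout) was -0.68 for the 18 synthesis enzymes and 1.59 for Abca1, Abcg1, Mylip and Apoe, against 0.00087 for all genes tested. With the LXR receptor genes Nr1h2 and Nr1h3, which did not pass, the median of the 6 genes of the LXR and export side was 1.22. Every 5E1 library lay below every IgG library for 15 of the 32 genes and above for 9, as for 21.4% and 20.8% of all genes tested (42.2% in either direction). Because these are bulk samples, fewer cells of one type and less RNA per cell cannot be told apart. The antibody's effect on the pathway it targets was read from Ptch1, the hedgehog receptor gene that the pathway induces, which measured 412, 415 and 405 CPM in IgG and 86.3, 82.1 and 102 CPM in 5E1 (edgeR adjusted p 4.12e-06). CPM are read counts normalised for depth on TMM-scaled library sizes.

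**Figure D1:**
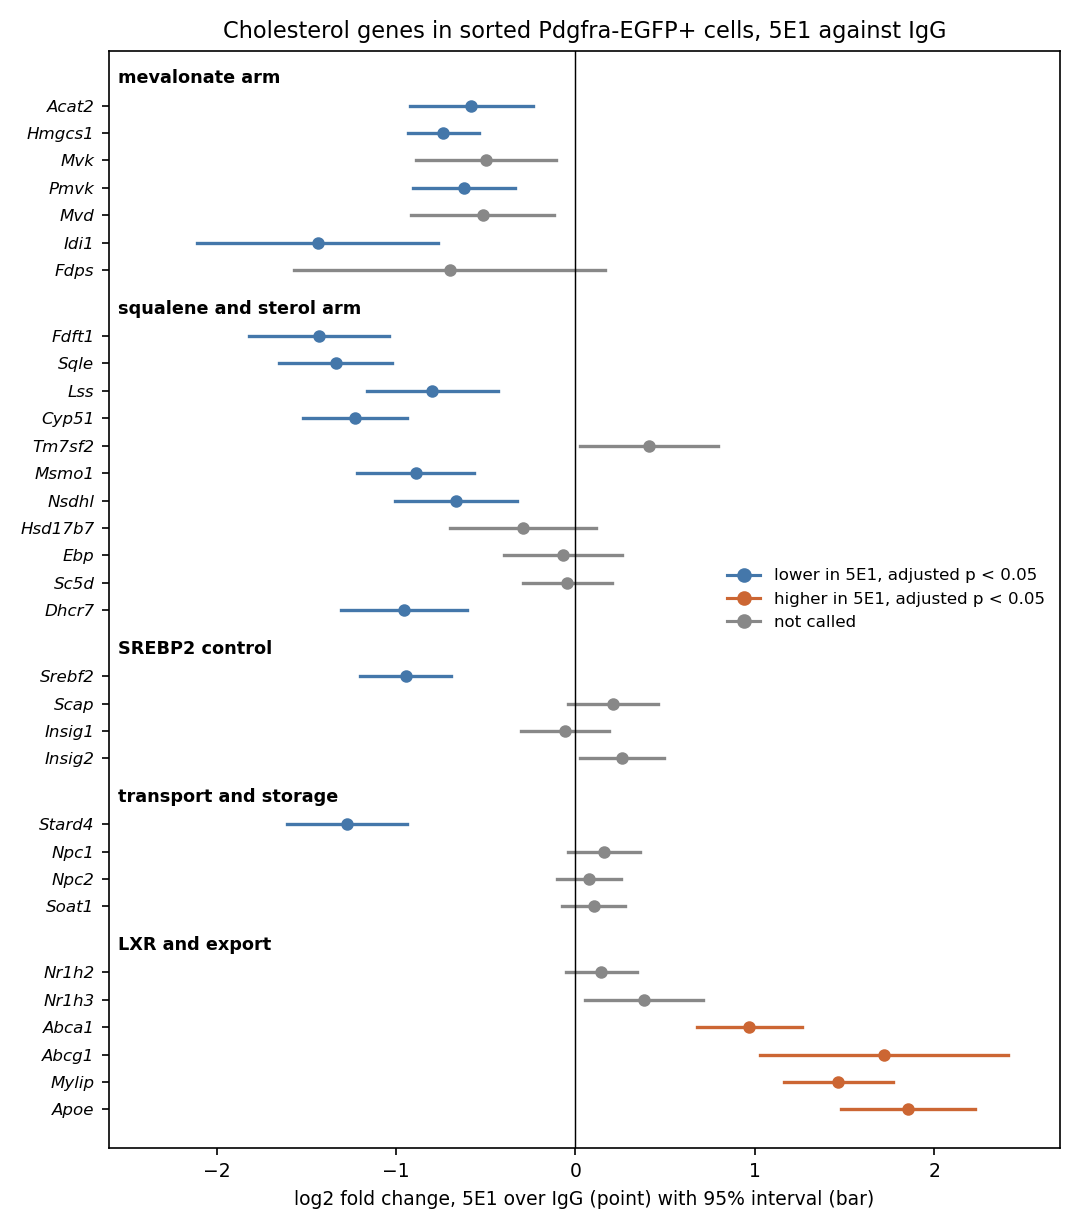
Log2 fold change of 5E1 over IgG for each of the 32 genes, grouped by role, as a point with its 95% interval as a bar (edgeR, 3 libraries per group). Blue genes fell and orange genes rose at an adjusted p under 0.05, and grey genes did not pass. The 13 blue points lie at -0.58 or below and the 4 orange points at 0.97 or above.

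Promoter sequence is shown for 3 synthesis genes that fell and 2 genes of the LXR side that rose, to set the regulatory letters beside the expression values. SREBP2 binds sterol regulatory elements, and the factor NF-Y, which binds the letters CCAAT, is a known partner of SREBP2 at such promoters. RefSeq promoters (GRCm38.p6, the mm10 build) were on hand for 26 of the 32 genes. Fdft1, Sqle, Stard4, Fdps, Abcg1 and Npc1 had none and were not searched. In the 26, 2 motifs were searched on both strands in the 250 bases before each start. They were the core of a sterol element, TCACNCCAC, and CCAAT, which reads ATTGG on the other strand. No motif of LXR was searched, so a stretch without capitals may still hold one. The stretches below give the last 170 bases before the start, 5′ to 3′ along the gene, with motif matches in capitals. They lie at chr13:119690181-119690350 (plus strand, Hmgcs1), chr3:89454371-89454540 (plus, Pmvk), chrX:72918351-72918520 (plus, Nsdhl), chr4:53159896-53160065 (minus, Abca1) and chr13:45389572-45389741 (plus, Mylip).
Hmgcs1: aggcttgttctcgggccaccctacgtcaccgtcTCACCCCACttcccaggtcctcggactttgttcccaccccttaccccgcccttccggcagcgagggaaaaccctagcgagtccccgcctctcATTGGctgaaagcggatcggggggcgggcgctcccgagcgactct
Pmvk: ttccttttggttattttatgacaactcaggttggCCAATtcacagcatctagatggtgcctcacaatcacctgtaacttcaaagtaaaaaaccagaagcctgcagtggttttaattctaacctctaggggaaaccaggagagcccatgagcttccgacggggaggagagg
Nsdhl: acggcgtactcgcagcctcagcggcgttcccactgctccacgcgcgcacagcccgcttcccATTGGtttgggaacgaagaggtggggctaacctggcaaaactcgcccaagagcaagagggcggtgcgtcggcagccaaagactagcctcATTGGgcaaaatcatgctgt
Abca1: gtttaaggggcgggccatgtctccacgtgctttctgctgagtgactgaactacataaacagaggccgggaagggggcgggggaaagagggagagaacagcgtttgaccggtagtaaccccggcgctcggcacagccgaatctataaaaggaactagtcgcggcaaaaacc
Mylip: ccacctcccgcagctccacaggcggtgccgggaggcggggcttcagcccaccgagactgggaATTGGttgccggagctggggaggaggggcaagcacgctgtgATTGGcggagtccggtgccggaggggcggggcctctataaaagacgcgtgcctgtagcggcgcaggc

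Hmgcs1 was the only one of the 26 with the sterol element core in that window, beginning 137 bases before the start, and 1.22% of the 27025 genes in the promoter table held it. The CCAAT letters stood before at least 1 start of 14 of the 15 synthesis enzymes with a promoter (93.3%), all but Acat2, against 37.5% of all genes in the table. Among the LXR and export genes they stood before 1 of 5, which was Mylip. They also stood before 3 of 4 genes of SREBP2 control and 2 of 2 of transport and storage. Over all genes other than the enzymes that made 6 of 11 (54.5%). Tm7sf2, Ebp and Sc5d, which did not pass the test in either direction, had CCAAT matches as well. A match describes letters in a window and not binding. A sterol element whose letters differ from the core, or that lies outside the window, would be missed. The other enzymes that fell can therefore not be said to lack one.

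The mevalonate arm turns acetyl-CoA into farnesyl diphosphate, and 4 of its 7 genes fell while none rose. Hmgcs1, which encodes the cytosolic HMG-CoA synthase that condenses acetoacetyl-CoA with acetyl-CoA, was the most abundant synthesis enzyme per kilobase of exon, at 15.2 CPM per kilobase in IgG. It measured 71.5, 74.3 and 63.02 CPM in IgG and 43.5, 41.9 and 39.9 CPM in 5E1. Every 5E1 library lay below every IgG library, the mean was 1.67-fold lower, with a log2 fold change of -0.74 (SE 0.09, edgeR adjusted p 0.000369). Acat2, the acetoacetyl-CoA thiolase one step earlier, measured 11.4, 15.1 and 13.1 CPM in IgG and 9.67, 8.54 and 8.28 CPM in 5E1 (log2 fold change -0.58, SE 0.15, adjusted p 0.0213). Its call ended without IgG replicate 2 (adjusted p 0.0887) or 3 (0.0602) or without 5E1 replicate 3 (0.0753), the only call among the 32 genes that any left-out library or other setting ended.

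Pmvk, the kinase that adds the second phosphate, fell from 15.98 ± 1.01 to 10.4 ± 0.459 CPM (SD, n = 3 each; log2 fold change -0.62, edgeR adjusted p 0.00635). Mvk, the kinase before it, and Mvd, the decarboxylase that follows, also had 5E1 libraries that all lay below the IgG libraries but did not pass. Mvk measured 17.0, 16.5 and 18.51 CPM in IgG and 15.3, 9.11 and 12.6 CPM in 5E1 (adjusted p 0.0631, 95% interval of the log2 fold change -0.89 to -0.11). Mvd measured 7.83, 9.63 and 8.93 CPM in IgG and 7.12, 5.24 and 6.15 CPM in 5E1 (adjusted p 0.0612, interval -0.92 to -0.12). In both, 5E1 replicate 1 was the highest library of its group, and without it each fell past the threshold (adjusted p 0.0179 for Mvk and 0.0424 for Mvd).

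Idi1, which isomerises isopentenyl diphosphate, had the lowest log2 fold change of the 32 genes. It measured 5.38, 4.93 and 5.34 CPM in IgG and 2.39, 2.35 and 1.07 CPM in 5E1, from 29 to 158 reads per library (log2 fold change -1.44, SE 0.30, edgeR adjusted p 0.00713). The spread among the 5E1 libraries came from replicate 3, which held less than the other two. Fdps, the farnesyl diphosphate synthase, was listed with only 14 to 50 reads per library, 1.57 ± 0.241 CPM in IgG and 0.953 ± 0.387 CPM in 5E1, and did not pass (adjusted p 0.227, interval -1.57 to 0.17). Fdps has pseudogene copies in the mouse genome, and reads with more than 1 alignment were not counted to genes. In addition 1124 of its 4208 exon bases overlap Gm43738 on the same strand, the longest overlap among the 32 genes, so its level is uncertain.

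The squalene and sterol arm is the part of the pathway committed to sterols, and 7 of its 11 genes fell while none rose. Its first enzymes fell by similar amounts. Fdft1, squalene synthase, measured 20.5, 21.5 and 18.48 CPM in IgG and 9.40, 7.41 and 5.74 CPM in 5E1 (log2 fold change -1.43, SE 0.18, edgeR adjusted p 0.000389). Sqle, squalene epoxidase, measured 22.4, 22.0 and 18.4 CPM in IgG and 9.29, 8.22 and 7.40 CPM in 5E1 (log2 fold change -1.34, SE 0.14, adjusted p 0.000181). In both genes the gap between the groups was wider than the range of the libraries within either. Lss, which closes oxidosqualene into lanosterol, fell less, from 16.9 ± 1.79 to 9.68 ± 1.78 CPM (log2 fold change -0.80, adjusted p 0.00637).

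Demethylation of lanosterol is shared by Cyp51, Msmo1 and Nsdhl, and all 3 fell. Cyp51, the cytochrome P450 that removes the 14-alpha methyl group, measured 45.4, 41.1 and 38.8 CPM in IgG and 21.6, 15.8 and 16.4 CPM in 5E1, a mean 2.33-fold lower (log2 fold change -1.23, SE 0.13, edgeR adjusted p 0.000181). Msmo1, the C4-methyl oxidase, fell from 17.7 ± 2.19 to 9.59 ± 1.11 CPM (adjusted p 0.00198), and Nsdhl, the X-linked C4-decarboxylating dehydrogenase, from 16.3 ± 2.66 to 10.3 ± 0.760 CPM (adjusted p 0.0111). With a term for the libraries without Y-linked reads, 1 in each group, all 13 calls of a fall among the 32 genes held. Hsd17b7, the ketoreductase of the same step, measured 25.3, 28.7 and 20.2 CPM in IgG and 18.3, 25.5 and 16.5 CPM in 5E1, and its groups overlapped (adjusted p 0.278, interval of the log2 fold change -0.70 to 0.11). Its 5E1 replicate 2 was the high library, and without it the gene fell past the threshold (log2 fold change -0.51, adjusted p 0.0356).

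The last steps were split. Dhcr7, which makes cholesterol from 7-dehydrocholesterol, measured 19.4, 28.3 and 21.1 CPM in IgG and 13.1, 10.8 and 11.5 CPM in 5E1 (log2 fold change -0.96, SE 0.16, edgeR adjusted p 0.00202). Ebp, the sterol isomerase, measured 12.9 ± 1.75 and 12.3 ± 1.18 CPM (adjusted p 0.781, interval -0.40 to 0.26), and Sc5d, the desaturase that follows it, 23.6 ± 2.62 and 22.9 ± 0.552 CPM (adjusted p 0.814, interval -0.29 to 0.20). Both intervals exclude a fall as large as that of Dhcr7. Tm7sf2, a sterol C14 reductase, was the only synthesis enzyme with a positive log2 fold change, at 8.21, 8.12 and 7.26 CPM in IgG and 9.02, 12.7 and 9.46 CPM in 5E1, and it did not pass (0.41, adjusted p 0.117). Lbr, which carries out the same reduction, measured 46.7, 51.4 and 46.1 CPM in IgG and 41.8, 47.5 and 41.8 CPM in 5E1 (adjusted p 0.321), and it is named here after its values were seen.

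**Figure D2:**
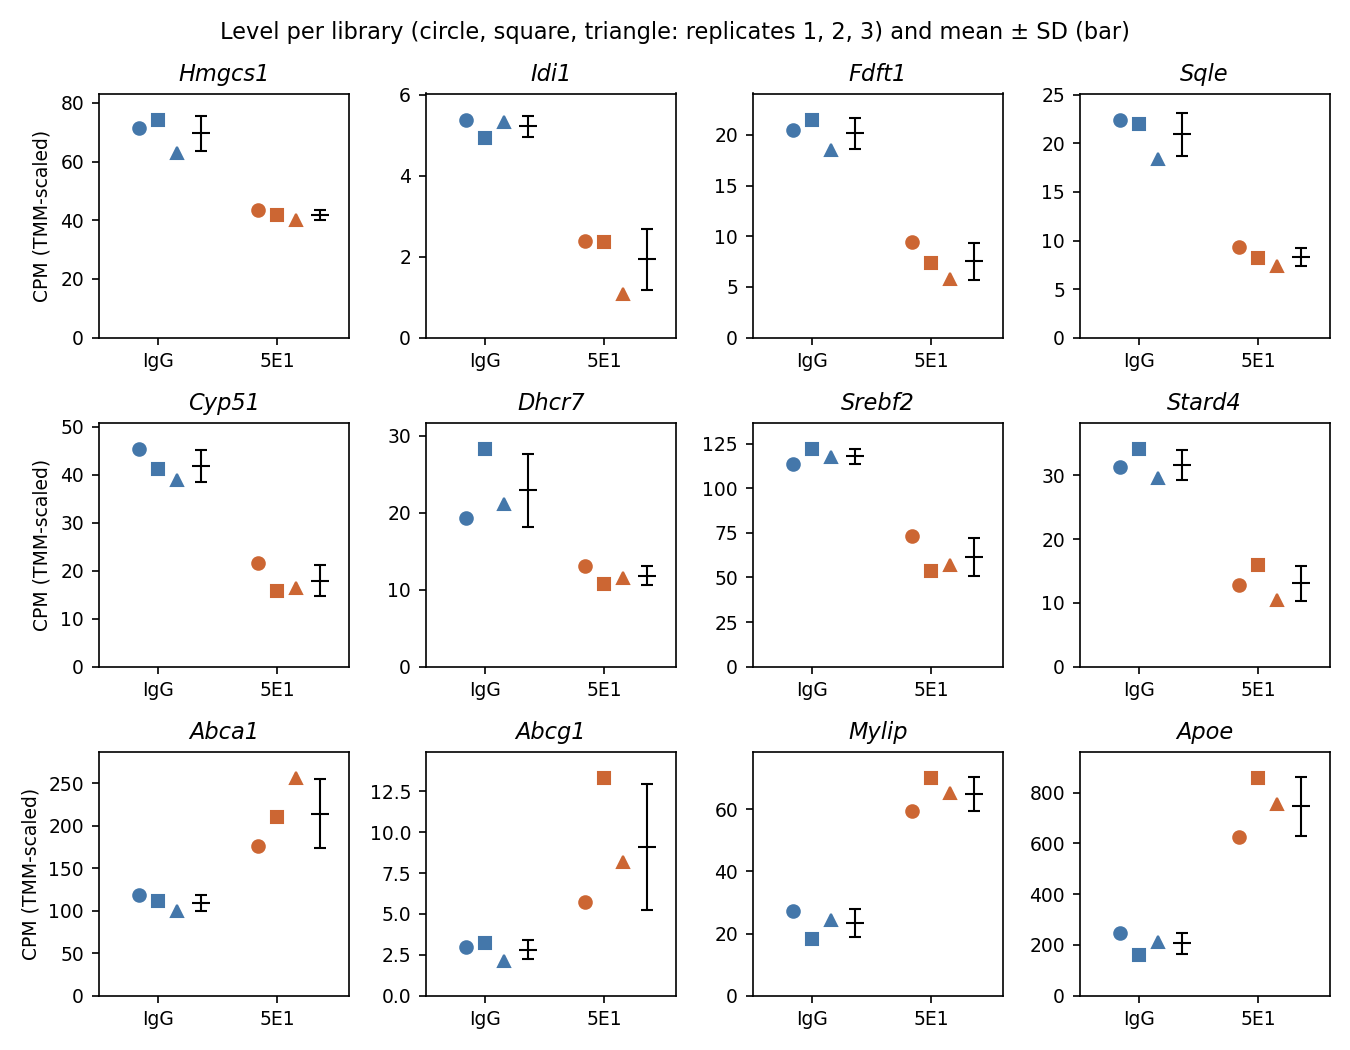
Level of 12 of the genes in each library, in CPM on TMM-scaled library sizes with the axis from 0, IgG in blue and 5E1 in orange, with the mean and SD of each group as a black bar (n = 3). In the upper 8 panels, from Hmgcs1 to Stard4, every 5E1 library lies below every IgG library, and in the lower 4, from Abca1 to Apoe, every 5E1 library lies above.

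Library by library, 5E1 replicate 3 was the lowest of its group in 9 of the 11 synthesis enzymes that fell, and replicate 1 the highest in 9. Among the IgG libraries, replicate 3 was the lowest in 7 of the 11. The mean log2 level of the 18 enzymes against their IgG mean lay between -0.09 and 0.05 in IgG and at -0.60, -0.67 and -0.86 in 5E1 replicates 1 to 3. Their summed level was 365, 379 and 328 CPM in IgG and 237, 224 and 209 CPM in 5E1.

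Of the genes that control SREBP2, only Srebf2 passed the test. Srebf2, which encodes SREBP2 itself and is one of its own targets, measured 114, 122 and 118 CPM in IgG and 73.5, 53.6 and 56.8 CPM in 5E1. The mean was 1.92-fold lower and the groups did not overlap (log2 fold change -0.95, SE 0.11, edgeR adjusted p 0.000363). Insig1, which encodes a protein that retains the SCAP complex and is another well-known SREBP2 target, measured 64.0, 55.6 and 63.7 CPM in IgG and 59.2, 67.1 and 50.3 CPM in 5E1. Its groups overlapped, and its interval of -0.30 to 0.19 on the log2 scale (adjusted p 0.761) does not reach the fall of Srebf2. Insig2, its homologue, measured 32.2 ± 1.55 and 38.5 ± 4.76 CPM (adjusted p 0.1003), and Scap, the escort of SREBP2, 38.2 ± 5.21 and 44.2 ± 3.80 CPM (adjusted p 0.215). None of the 9 tested genes of a further list of the SREBP machinery passed at an adjusted p under 0.05 in the edgeR test, the smallest adjusted p being 0.0576. These included Mbtps1 and Mbtps2, which encode the proteases that cleave SREBP2, and Srebf1, which encodes SREBP1 (59.0 ± 2.59 and 55.7 ± 2.53 CPM).

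Other SREBP target genes moved both ways and by less. Of 10 such genes 3 fell and 1 rose, with a median log2 fold change of -0.13. Acly, which makes cytosolic acetyl-CoA from citrate, fell from 148 ± 1.02 to 115 ± 10.6 CPM (log2 fold change -0.37, edgeR adjusted p 0.0131), and the retinol dehydrogenase gene Rdh11 fell by 0.41 on the log2 scale (adjusted p 0.0152). Acss2, which makes acetyl-CoA from acetate, rose from 17.8 ± 1.74 to 27.7 ± 3.42 CPM (log2 fold change 0.64, adjusted p 0.00527). Only 1 of the 10 fell without IgG replicate 1 or without IgG replicate 2. Over all genes 1128 and 1084 fell in those settings, against 1791 with all libraries. The branch that uses isoprenoids for purposes other than sterols, such as dolichol, ubiquinone and protein prenylation, had 1 of 12 genes lower and none higher. Over all genes tested 11.1% fell and 12.1% rose, so 1 fall in 12 is near the share over all genes. The gene was Fntb, a farnesyltransferase subunit (log2 fold change -0.49, edgeR adjusted p 0.0357). Leaving out any 1 of the IgG libraries ended that call, as did leaving out 5E1 replicate 2 or 3 (adjusted p 0.0573 to 0.120).

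Among the genes of transport and storage, only Stard4 passed. Stard4, which encodes a cytosolic sterol carrier and is induced by SREBP2, measured 31.2, 34.2 and 29.5 CPM in IgG and 12.8, 15.96 and 10.4 CPM in 5E1 (log2 fold change -1.27, SE 0.15, edgeR adjusted p 0.000334). Npc1 and Npc2, whose products move cholesterol taken up with lipoproteins out of the lysosome, measured 89.2 ± 4.16 and 221 ± 6.62 CPM in IgG and 99.6 ± 9.58 and 232 ± 4.68 CPM in 5E1. Neither passed (adjusted p 0.234 and 0.556), and their log2 intervals ran from -0.04 to 0.36 and from -0.11 to 0.25. Soat1, which esterifies cholesterol for storage, measured 51.5 ± 1.51 and 55.2 ± 2.41 CPM (adjusted p 0.391, interval -0.07 to 0.28). Of 17 further genes of sterol transport and oxysterol formation 3 rose and none fell, while 12.1% of all genes tested rose and 11.1% fell. Gramd1b, a transporter at contacts with the plasma membrane, rose from 17.4 ± 1.29 to 27.2 ± 0.888 CPM (edgeR adjusted p 0.00201). Cyp27a1, the sterol 27-hydroxylase that makes an oxysterol, rose from 8.77 ± 0.864 to 17.3 ± 4.03 CPM (adjusted p 0.00338). The third was Nceh1, a cholesteryl ester hydrolase gene (log2 fold change 1.19, adjusted p 0.0191), which is named because its value had been seen. DESeq2 called 5 of the 17 higher and 2 lower, and edgeR without the filter on low counts called 6 higher and 2 lower. Over all genes DESeq2 called 2136 higher and 1758 lower of 17025. Without the filter 2329 were called higher and 2114 lower of 27808, against 1966 and 1791 of 16198 in the main setting.

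On the export side all 4 genes other than the receptors rose, and in each every 5E1 library lay above every IgG library, as was so for 20.8% of all genes tested. Apoe, the apolipoprotein that accepts exported cholesterol, was the most abundant of the 32 genes per kilobase of exon in both groups (96.4 and 349 CPM per kilobase). It measured 245, 162 and 212 CPM in IgG and 625, 859 and 755 CPM in 5E1, a mean 3.62-fold higher (log2 fold change 1.86, SE 0.17, edgeR adjusted p 0.000122). Abca1, the transporter that loads cholesterol onto lipid-poor apolipoproteins, measured 118, 111 and 99.4 CPM in IgG and 177, 210.0 and 257 CPM in 5E1 (log2 fold change 0.97, SE 0.13, adjusted p 0.000814). Abcg1, which exports to mature lipoprotein particles, was low, at 2.998, 3.25 and 2.14 CPM in IgG and 5.76, 13.3 and 8.17 CPM in 5E1 (log2 fold change 1.72, SE 0.31, adjusted p 0.00364). Its 5E1 libraries spread over more than their distance from IgG, with replicate 2 the highest.

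Mylip, which encodes a ubiquitin ligase that marks lipoprotein receptors for degradation and so limits uptake, rose with the exporters. It measured 27.3, 18.4 and 24.5 CPM in IgG and 59.3, 70.2 and 65.1 CPM in 5E1, a mean 2.77-fold higher (log2 fold change 1.47, SE 0.14, edgeR adjusted p 0.000122). The receptors themselves did not pass. Nr1h3, which encodes LXR alpha and is its own target in human cells, measured 19.2, 14.7 and 22.0 CPM in IgG and 22.5, 26.7 and 23.8 CPM in 5E1 (log2 fold change 0.38, adjusted p 0.0885). It passed with no low-count filter (adjusted p 0.0417). Nr1h2, which encodes LXR beta, measured 58.5 ± 5.73 and 64.7 ± 1.94 CPM (adjusted p 0.281, interval -0.06 to 0.34).

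Further genes listed as LXR targets did not move as a block. Of 8 such genes 3 rose, 2 fell and 3 did not pass, with a median log2 fold change of 0.17. Over all genes tested 12.1% rose and 11.1% fell. Whether LXR controls each of the 8 in these cells was not tested. Smpdl3a, a phosphodiesterase gene that LXR induces in human macrophages, rose from 19.1 ± 2.74 to 45.7 ± 8.77 CPM (edgeR adjusted p 0.000483), and Lpl, lipoprotein lipase, from 113 ± 21.7 to 243 ± 63.5 CPM (adjusted p 0.0122). Pltp, the phospholipid transfer protein, fell from 177 ± 4.06 to 76.3 ± 16.8 CPM (adjusted p 0.000498), and Arl4c, a small GTPase gene, from 55.9 ± 2.68 to 26.8 ± 2.72 CPM (adjusted p 9.77e-05). Srebf1 and Lpcat3, a phospholipid-remodelling enzyme, had log2 fold changes of -0.08 and -0.06 and did not pass. Without 5E1 replicate 3, 1 of the 8 rose, and over all genes 1337 rose, against 1966 with all libraries.

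Set side by side, the synthesis and export genes parted the groups in every library. Against their own IgG means, the 4 export genes minus the 18 enzymes gave a mean log2 difference of 0.15, -0.17 and -0.01 in IgG replicates 1 to 3 and of 1.77, 2.38 and 2.39 in 5E1 replicates 1 to 3. These differences are a description of the libraries with no test, since the genes were chosen for the contrast of synthesis with export. The 4 leave out Nr1h2 and Nr1h3, which did not pass, while the 18 include the enzymes that did not pass.

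**Figure D3:**
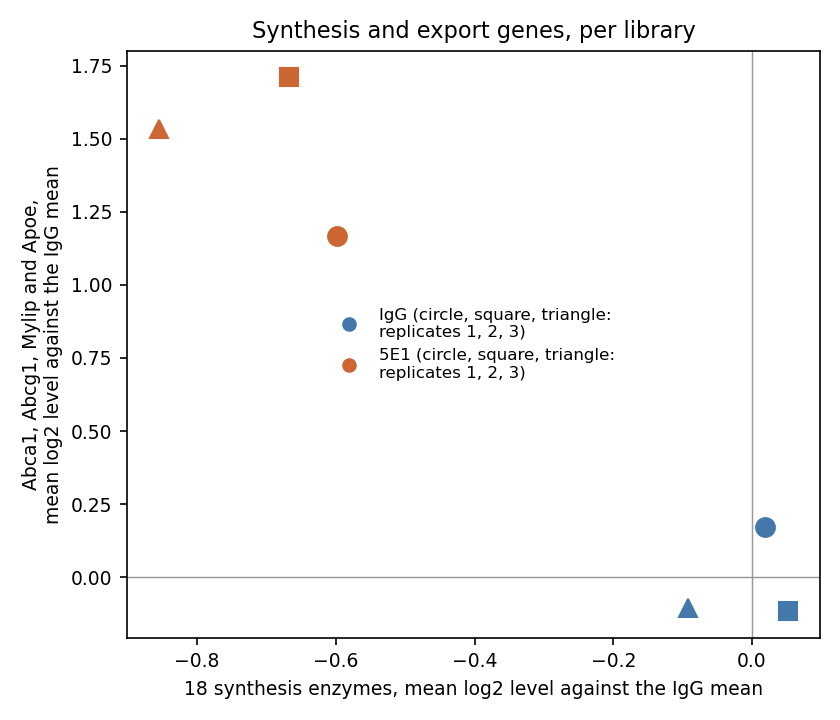
Mean log2 level of the 18 synthesis enzymes (x axis) and of Abca1, Abcg1, Mylip and Apoe (y axis) in each library, each gene set against its own mean over the IgG libraries. The 3 IgG libraries (blue) lie between -0.12 and 0.17 on both axes, and the 3 5E1 libraries (orange) lie at -0.60 or below on the x axis and 1.17 or above on the y axis.

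Other gene lists moved with these results. Of 20 genes of G2 and mitosis 19 fell, among them Anln and Kif20a of cell division (log2 fold change -1.54 and -2.00, edgeR adjusted p 4.76e-05 and 0.000433), and their summed level was 796 to 873 CPM in IgG and 375, 158 and 227 CPM in 5E1 replicates 1 to 3. The summed level of the enzymes was also highest in 5E1 replicate 1, but it was lowest in replicate 3 and not in replicate 2. Of 17 macrophage markers 12 rose and none fell, and none was at 0 reads in any library. Their summed level was 230 to 276 CPM in IgG and 448, 683 and 513 CPM in 5E1 replicates 1 to 3. Without Lpl, which is also on the list of LXR targets and was set apart after its values were seen, the other 16 summed to 132, 141 and 154 CPM in IgG and 278, 402 and 235 CPM in 5E1. The 2 most abundant were Lpl (113 ± 21.7 and 243 ± 63.5 CPM in IgG and 5E1) and Lyz2 (64.3 ± 7.196 and 119 ± 44.5 CPM, edgeR adjusted p 0.0662). Lpl alone was thus a large part of the sum of the 17. Which cells its reads came from was not tested, so that sum cannot be read as macrophage RNA alone. 5E1 replicate 2, with the highest sum of those 16, had the highest Apoe, Abcg1 and Mylip of its group, and replicate 3, with the lowest sum, had the highest Abca1. Replicate 1, whose sum of the 16 lay between them, had the lowest level of all 4 export genes in its group. Only with Lpl counted did replicate 1 have the lowest marker sum of its group as well. Lpl itself measured 169, 281 and 278 CPM in 5E1 replicates 1 to 3. With each of the 16 weighing the same, replicates 1 and 3 were close (mean log2 level 0.94 and 0.92 against the IgG mean). All 9 tested neutrophil markers rose, from a sum of 14.2 to 18.8 CPM in IgG to 132 to 216 CPM in 5E1, led by S100a9 and S100a8, and 2 of the list of 10 were at 0 reads in IgG replicate 2. The part of proliferating cells, macrophages or neutrophils in the results on cholesterol genes was not tested.

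Epithelial and endothelial transcripts were present too, and the summed level of each list was highest in 5E1 replicate 2. Alveolar type 2 markers, from cells that make cholesterol for surfactant, summed to 251 to 284 CPM in IgG and 257 to 611 CPM in 5E1, with Sftpc and Sftpb the most abundant, and 2 of 10 rose. Other epithelial markers summed to 269 to 531 and 312 to 1108 CPM, led by Scgb1a1 and Ager (2 of 10 rose), and endothelial markers to 164 to 193 and 184 to 362 CPM, led by Ramp2 and Tek (1 of 10 rose). Over all genes tested 12.1% rose, so the counts that rose in these lists are near that share. Ramp2 and Tek did not follow the endothelial sum, since within 5E1 Ramp2 was lowest in replicate 2 (41.6, 38.1 and 40.3 CPM) and Tek highest in replicate 3 (38.6, 47.04 and 50.7 CPM). Without 5E1 replicate 2, 14 of the 32 genes fell and the same number as before, 4, rose. Fibroblast markers, led by Eln and Col3a1, summed to 79682 to 97696 CPM in IgG and 116653 to 168351 CPM in 5E1, with Pdgfra itself at 413 CPM or more in every library, as the sort would give.

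**Figure D4:**
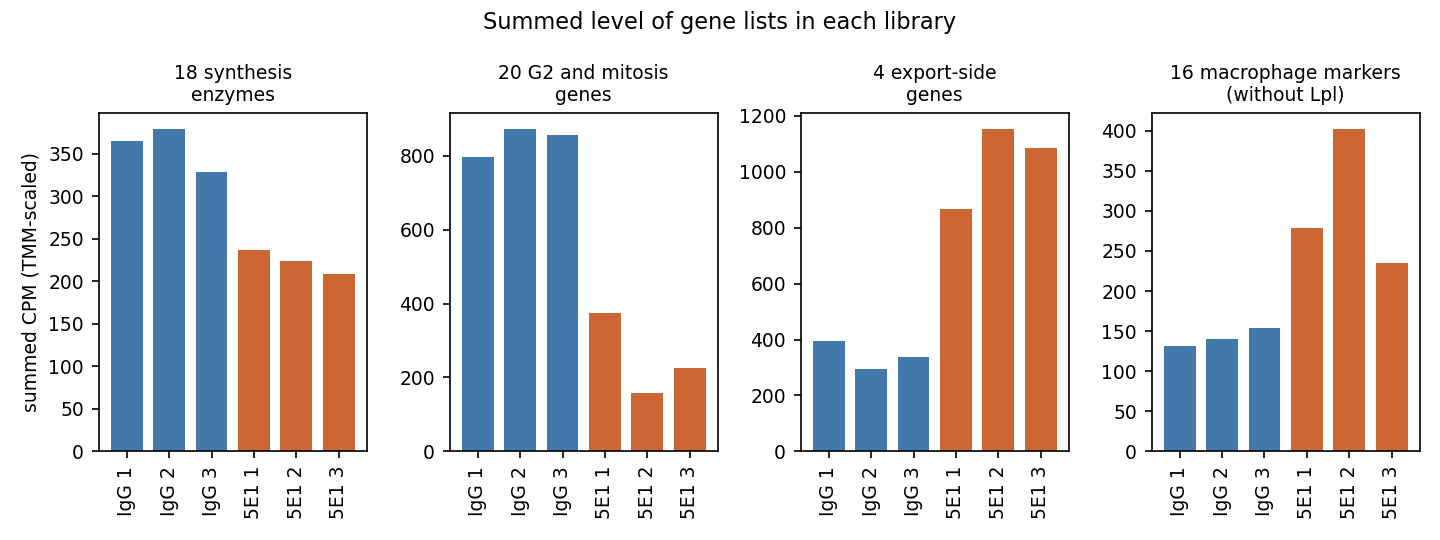
Summed level of 4 gene lists in each library, in CPM on TMM-scaled library sizes with bars from 0, IgG in blue and 5E1 in orange. The enzymes go from 328 to 379 CPM in IgG to 209 to 237 CPM in 5E1 and the mitosis genes from 796 to 873 to 158 to 375 CPM, while the export genes (294 to 394 and 867 to 1153 CPM) and the macrophage markers without Lpl (132 to 154 and 235 to 402 CPM) are higher in every 5E1 library.

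Per kilobase of exon, the order of levels in IgG began with Apoe, Npc2, Insig1, Nr1h2, Srebf2 and Hmgcs1. In 5E1 it began with Apoe, Npc2, Abca1, Mylip, Nr1h2 and Insig1, with Srebf2 at rank 11 and Hmgcs1 at rank 9 of the 32. At the low end stood Fdps and Abcg1 in IgG (0.372 and 0.383 CPM per kilobase) and Fdps and Idi1 in 5E1 (0.227 and 0.553 CPM per kilobase). These levels divide by all annotated exon bases of a gene, so a gene with many rare exons reads low. Exons of 10 of the 32 genes overlap an exon of another gene in GENCODE M21, among them 5 that changed. For Fdft1 the overlap is 774 bases with Ctsb, for Hmgcs1 557 bases with Gm48342, for Lss 381 bases with 4930483K19Rik, for Idi1 323 bases with Gm48574 and for Cyp51 166 bases with Akap9, each on the opposite strand. Among the genes that did not pass, Fdps, Tm7sf2 and Nr1h3 overlap a partner on the same strand and Scap and Npc1 one on the opposite strand. Because the strand setting of the counting is not given in the sources used here, reads of the partner cannot be told apart in these counts.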

How the data were processed

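The authors deposited 1 table of unnormalized read counts by gene symbol for each library. The submitters' processing notes name build mm10 and the tools HTSeq 0.6.0, STAR 2.5.0c, DESeq2 1.10.0, Picard 1.126, R 3.5.1 and bedtools 2.17.0, without saying what each did, and the labels' protocols name a stranded mRNA kit. Groups and replicate numbers come from the sample titles. Gene counts summed to 16958433 to 34318583 per library, and summary lines that name no gene (36.4% to 54.7% of all reads listed, most of them unaligned) were left out. No pair of replicates agreed within sampling noise (chi-square over degrees of freedom 14.8 to 50.5). Reads are not independent molecules, so depth limits precision only as far as counting error goes.

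Counts were filtered with filterByExpr (minimum count 10, minimum total 15), scaled with TMM factors and tested by quasi-likelihood in edgeR 4.0.16 under R 4.3.3 (robust, group as the only term, two-sided), with Benjamini-Hochberg adjustment over all genes tested. The script was tested on simulated data. Values are CPM as mean ± SD (n = 3). Log2 fold changes use a prior count of 0.125, and SE and 95% intervals are of the unshrunken coefficient. Alternatives were RLE factors, library size alone, DESeq2 1.42.0, voom of limma 3.58.1, other filters, estimation that is not robust, a block for the replicate number, a term for the 2 libraries with under 1 CPM of Y-linked genes, and each library left out. The members and lists were chosen with earlier results of these data known. All 32 members are named. Of each other pathway list, the called genes with the 2 smallest p in each direction are named, and of each cell type list the 2 most abundant. Lbr, Nceh1, Abca7, Srebf1, Lpcat3, Mbtps1 and Mbtps2 are named outside this rule. Positions and exon lengths are from GENCODE M21. Spring1 and some further genes of the pathway are not analysed here.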

Additional observations from a re-analysis of the deposited data

How the results depend on the processing

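Of the 17 genes called among the 32, 16 were called in the same direction under all 15 alternatives, and the exception was Acat2. The number that fell ran from 12 to 15 and the number that rose from 4 to 5. Uncalled genes changed sign near 0, namely Ebp (0.024 without IgG replicate 1, 0.0054 without 5E1 replicate 2), Sc5d (0.0037 without IgG replicate 2), Insig1 (0.043 without 5E1 replicate 3) and, with library size alone, Npc2 (-0.072), Soat1 (-0.041) and Nr1h2 (-0.0016). That scaling shifted the median over all genes to -0.14 and gave 1312 higher and 3274 lower calls, against 1966 and 1791 with TMM. Mvk also passed with library size alone (0.0181), no low-count filter (0.00781), limma-voom (0.0339) and DESeq2 (0.0468), and Mvd with library size alone (0.0236) and limma-voom (0.0495).

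The wider lists moved more, and the cause was not tested. Calls over all genes moved as well, from 3757 in the main setting to between 2305 and 3704 with 1 library left out. They numbered 4586 with library size alone, 4443 with no low-count filter and 3894 with DESeq2. With limma-voom they numbered 3892, with the replicate block 3220 and with the Y-linked term 3538. Other SREBP targets that fell numbered 1 to 3 with 1 library left out. SREBP machinery genes that fell numbered 2 with library size alone, 1 with limma-voom, 1 with no low-count filter and 0 to 1 with 1 library left out. Other LXR targets that rose numbered 1 to 3 with 1 library left out. Sterol transport genes that rose numbered 6 with no low-count filter and 5 with DESeq2. Those that fell numbered 3 with library size alone, 2 with DESeq2, limma-voom or no low-count filter, 1 with the replicate block, 1 with the Y-linked term and 0 to 2 with 1 library left out. Isoprenoid genes that fell numbered 2 with library size alone, 0 with the replicate block and 0 to 1 with 1 library left out. The looser motif TCANNCCAC, which includes every match of the sterol core, stood before 2 of the 26 genes, Hmgcs1 and Mylip, and before 4.06% of all. Same-numbered libraries showed no shared deviation from their group means (correlations -0.17, 0.01 and -0.07). With means of 3 libraries this cannot exclude a pairing, and the labels name none. With the replicate number as a block 13 of the 32 genes fell and 4 rose, as without it. Fdps and Idi1 rest on 14 to 158 reads per library, which limits what can be said of them.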
